A study of Bos taurus with 12 samples.

Results

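The 10 genes described here encode the methionine cycle enzymes and their close partners in the calf liver: MAT1A, MAT2A, MAT2B, GNMT, AHCY, AHCYL1, BHMT, BHMT2, MTR and MTRR. They were chosen by name, as the enzymes of the cycle, with earlier results of these data known, and all 10 were found among the 30336 genes counted. All 10 also passed the filter on low counts that left 13242 genes for testing. RNA-seq was done on liver biopsies of Holstein heifer calves taken at 4 d of age. Dams of the CON calves received a close-up diet with no added Met, and dams of the MET calves received that diet plus rumen-protected Met in an ethyl-cellulose coat, over the last 28 d before calving. All calves were managed alike after birth, but each was given first colostrum of its own dam, so a diet effect before birth and one through colostrum cannot be told apart. There were 6 libraries of each group, with 8277789 to 10397604 reads counted in genes per library. At that depth 3 reads correspond to 0.289 to 0.362 CPM (reads of a gene scaled to a common library size), and every member was counted in every library, from 27 reads for MTRR to 27182 reads for AHCY.

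The methionine cycle turns the amino acid into S-adenosylmethionine, the methyl donor of nearly all methyltransferases, and then recovers what is left. Methionine adenosyltransferases make S-adenosylmethionine, methyltransferases turn it into S-adenosylhomocysteine, and AHCY splits that product into homocysteine and adenosine. Homocysteine is either returned to methionine, with betaine as the methyl source through BHMT or with methylfolate and cobalamin through MTR, or leaves the cycle toward cysteine. The liver is the main site of the cycle, and MAT1A, GNMT and BHMT are known as liver enzymes.

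Some libraries had to be checked before any comparison. CON replicates 1 and 4 differed by a chi-square of 1.33 per gene and MET replicates 1 and 3 by 1.24, where 1 is what counting noise alone gives, while the other 64 pairs of libraries gave 25.1 to 133. In both groups the libraries of the close pair carried the same 2 second index sequences. Each close pair was therefore counted as 1 sample with its reads summed, which left 5 CON and 5 MET samples. Results over all 12 libraries are given beside the main ones. For the members, the libraries of a close pair differed at most 1.34-fold in CPM by library size, with the exception of MTRR in the CON pair, which had 80 reads in replicate 1 and 46 in replicate 4 (1.67-fold). Apart from the close pairs, MET replicate 4 (chi-square of 48.3 to 82.1 per gene) and MET replicate 5 (52.0 to 133) stood farther from every other library than the rest did from their nearest (25.1 to 33.4). The first index differed between all CON and all MET libraries, so an effect of that index and an effect of diet cannot be told apart.

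The biopsies carried abundant RNA of hepatocytes. No marker of any cell type passed an FDR of 0.10 over the 10 samples. Over the 12 libraries 2 markers of dividing cells and 1 each of cholangiocytes, macrophages and stellate cells did, beside 4.41% of all genes (583 of 13212). Counts of markers at an unadjusted p of at most 0.05 stand beside 16.3% of all genes tested. The summed level of 8 hepatocyte markers was 133408 to 180513 CPM in CON and 112052 to 137088 CPM in MET samples, with 6 of the 8 lower in MET calves and 1 (ALB) at an unadjusted p of at most 0.05. All 5 markers of dividing cells were lower in MET calves at that threshold, with sums of 18.5 to 74.4 CPM in CON and 9.78 to 24.7 CPM in MET samples. All 7 macrophage markers were higher (1079 to 1501 against 1255 to 1695 CPM, 2 of 7 at that threshold) and all 6 T and NK cell markers were higher (21.3 to 33.4 against 25.6 to 45.8 CPM, 1 of 6). All 7 stellate and fibroblast markers were lower (583 to 876 against 439.5 to 723 CPM, 1 of 7), as were the 4 cholangiocyte markers tested of 5 (50.7 to 78.0 against 30.5 to 67.8 CPM, 1 of 4). Of 6 endothelial markers 3 were higher and 3 lower (296 to 459 against 257 to 427 CPM, 1 of 6), and only 2 of 7 erythroid markers passed the count filter (7.67 to 960.2 against 57.0 to 459.9 CPM, 0 of 2). No listed marker was at 0 in all samples. The part of these cell types in the values of the methionine cycle genes was not tested, and in bulk tissue fewer cells of a type and less RNA per cell cannot be told apart.

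Levels of the members were compared with each other as CPM per kilobase of exonic length, since a longer transcript gives more reads. AHCY had the highest level, at 933 ± 160.4 CPM per kb (SD, n = 10), and ranked 76th among all genes. BHMT followed at 652 ± 139 CPM per kb and ranked 106th. These hydrolase and betaine enzymes stood well above the enzymes that make S-adenosylmethionine: MAT1A was at 148 ± 50.8 and MAT2A at 83.4 ± 7.03 CPM per kb. GNMT, which methylates glycine and is known as a buffer of the S-adenosylmethionine supply, had 37.6 ± 32.9 CPM per kb, and AHCYL1 24.8 ± 2.71. The low end held BHMT2 at 10.8 ± 4.63, MTR at 4.48 ± 1.17, MAT2B at 3.18 ± 0.786 and MTRR at 2.19 ± 0.646 CPM per kb. The order of neighbours held in all 10 samples for BHMT over MAT1A, MAT1A over MAT2A, AHCYL1 over BHMT2 and MAT2B over MTRR. It held in 9 of 10 samples for AHCY over BHMT, MAT2A over GNMT and BHMT2 over MTR, in 8 of 10 for MTR over MAT2B and in 7 of 10 for GNMT over AHCYL1. GNMT and AHCYL1 did not differ beyond their spread, with a mean log2 ratio of 0.34 ± 0.74 (SD over samples), and AHCY over BHMT (0.53 ± 0.48) and MTR over MAT2B (0.50 ± 0.40) exceeded theirs only narrowly.

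**Figure D1:**
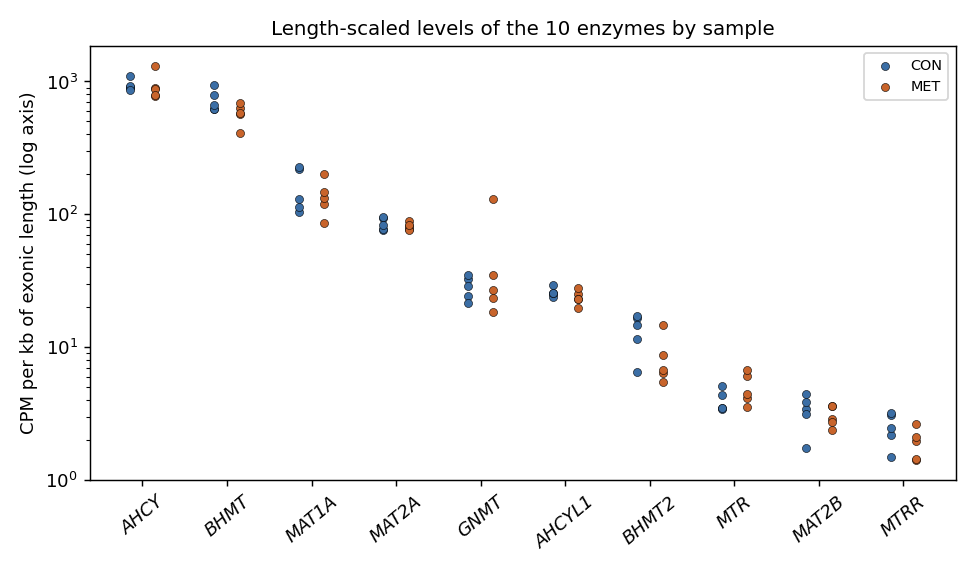
Level of each enzyme in CPM per kilobase of exonic length on a log axis, with 1 point per sample (5 CON, 5 MET), ordered by the mean over 10 samples. AHCY and BHMT sit at the top and MTR, MAT2B and MTRR at the bottom, and 1 MET sample of GNMT stands apart from the rest.

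None of the 10 members differed between MET and CON calves at an FDR of 0.10, and no member had MET samples wholly apart from CON samples. No other gene passed that FDR either: by the quasi-likelihood test of edgeR over the 10 samples, with Benjamini-Hochberg adjusted p-values (FDR), 0 of 13242 genes (0%) passed. On the same samples DESeq2 called 639 genes, none of them a member, and the edgeR fit without MET replicates 1 and 3 called 39, again with no member. At an unadjusted p of at most 0.05 the members counted 1 of 10 (BHMT2), beside 16.3% of all genes tested (2165), so their share was not above the background. Over the 12 libraries 0 of 10 members passed the FDR of 0.10, beside 4.41% of genes (583 of 13212), and 2 of 10 (BHMT and BHMT2) had an unadjusted p of at most 0.05, beside 20.5% of genes (2715). Of all genes, 3.72% (492) had the 5 MET samples wholly above or wholly below the 5 CON samples. Estimates were lower in MET calves for 8 members and higher for 2 (GNMT and MTR), with a median log2 fold change of -0.13 (all genes: -0.00). A p that misses the threshold does not show that the diets gave equal levels, and the intervals below state what differences remain possible.

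**Figure D2:**
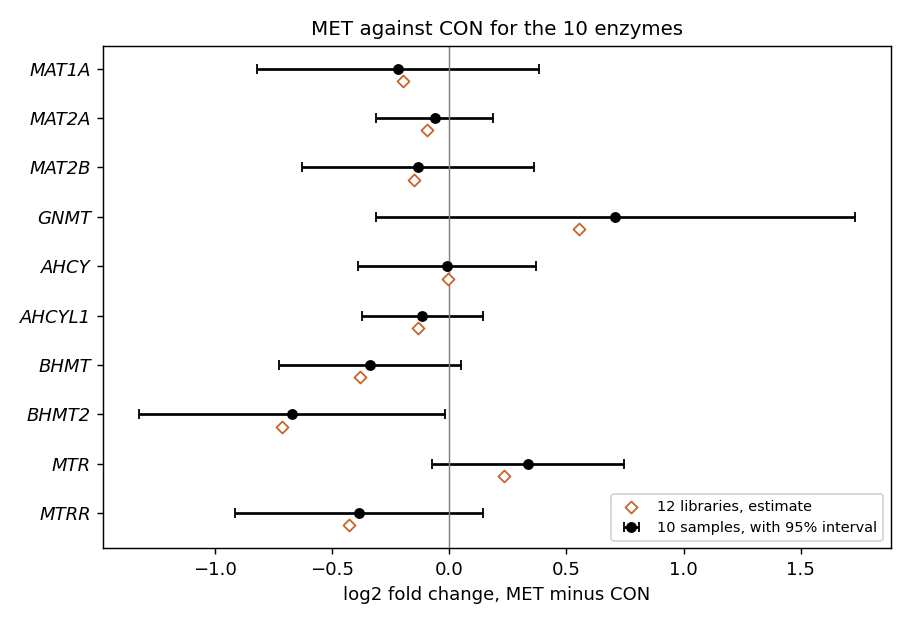
Log2 fold change of MET minus CON for the 10 enzymes, with black points and bars for the estimate and 95% interval over 10 samples and open diamonds for the estimate over 12 libraries. The bar of BHMT2 alone ends short of 0, at -0.02, and the widest is that of GNMT, from -0.31 to 1.73.

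The first step is the synthesis of S-adenosylmethionine. MAT1A (gene ID 541078, chromosome 28, 35870566 to 35887533 on the minus strand of build UMD 3.1.1, 9 exon blocks) encodes the adult-liver methionine adenosyltransferase. Its levels were 749.8, 776, 446, 350.1 and 385 CPM in CON samples (replicates 1 and 4 together, then 2, 3, 5 and 6). In MET samples (replicates 1 and 3 together, then 2, 4, 5 and 6) they were 688, 291, 404, 447 and 496 CPM. High and low calves occurred under both diets, and the means were 541 ± 205 CPM in CON and 465 ± 146 CPM in MET calves (SD, n = 5 each). The log2 fold change was -0.22 with a standard error of 0.28 and a 95% interval from -0.82 to 0.38 (edgeR quasi-likelihood test, Benjamini-Hochberg adjusted p = 0.731). An exact two-sided permutation test of the log2 CPM over all arrangements of the samples, which can give no p below 0.00794, gave p = 0.563. With 1 sample left out the estimate moved between -0.40 (without MET replicates 1 and 3) and -0.06 (without CON replicate 2). It was also -0.07 without CON replicates 1 and 4, -0.09 without MET replicate 2 and -0.34 without CON replicate 5. The SD of MAT1A within diets, 0.50 on the log2 scale, was greater than that of 82.6% of tested genes.

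MAT2A (gene ID 527403, chromosome 11, 49298517 to 49305175, minus strand, 9 exon blocks) encodes the methionine adenosyltransferase of tissues other than adult liver and of dividing cells. It was the steadiest member. Its levels were 263, 213, 218, 267 and 234 CPM in CON and 219, 229, 249.9, 215 and 233 CPM in MET samples, in the order given above. The highest sample exceeded the lowest by only 1.26-fold, all MET values lay within the CON range, and its SD within diets exceeded that of 3.75% of tested genes. The log2 fold change was -0.06 (95% interval from -0.31 to 0.19, exact permutation p = 0.492), and between -0.10 and -0.02 with 1 sample left out.

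Per kilobase, MAT1A exceeded MAT2A in all 10 samples, but by very different amounts. The ratio was 2.36, 3.02, 1.69, 1.08 and 1.36 in CON and 2.59, 1.06, 1.34, 1.72 and 1.76 in MET samples. Calves with nearly equal levels of both genes (CON replicate 5 and MET replicate 2) were thus found under both diets, and MAT1A made up from 51.3% (MET replicate 2) to 75.1% (CON replicate 2) of the 2 transcripts. MAT2B (gene ID 614177, chromosome 7, 77318600 to 77337010, plus strand, 8 exon blocks) encodes the regulatory subunit that binds the MAT2A enzyme. It had 4.27 to 10.98 CPM in CON and 5.85 to 8.97 CPM in MET samples. Its log2 fold change was -0.13 (95% interval from -0.63 to 0.36, exact permutation p = 0.794), and between -0.29 (without CON replicate 2) and -0.01 (without CON replicate 6) with 1 sample left out. MAT2A exceeded it per kilobase by 18.7 to 43.8-fold.

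GNMT (gene ID 538212, chromosome 23, 16579597 to 16583029, plus strand, 6 exon blocks) uses S-adenosylmethionine to turn glycine into sarcosine, and is inhibited by methylfolate. Its levels were 34.9, 37.8, 26.3, 31.2 and 23.0 CPM in CON samples and 25.3, 19.7, 140.0, 29.0 and 37.5 CPM in MET samples. MET replicate 4 alone stood at 140.0 CPM, while the other 9 samples lay between 19.7 and 37.8 CPM with the diets fully mixed. The log2 fold change of 0.71 (standard error 0.47, 95% interval from -0.31 to 1.73, exact permutation p = 0.754) rests on that sample and was -0.14 without it. It was 0.33 by limma voom. In MET replicate 4 the GNMT level per kilobase exceeded that of MAT1A, with a MAT1A to GNMT ratio of 0.917, where the other 9 samples had 3.56 to 8.64.

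The next step splits S-adenosylhomocysteine. AHCY (gene ID 508158, chromosome 13, 64258556 to 64274274, minus strand, 10 exon blocks) encodes the hydrolase, which keeps this product from inhibiting methyltransferases. Its levels were 1890.5, 2332, 1926, 1968 and 1849 CPM in CON samples and 1911, 1865, 1643, 1672 and 2799 CPM in MET samples. One calf was high under each diet, CON replicate 2 and MET replicate 6, and the other 8 samples lay between 1643 and 1968 CPM. The means were 1993 ± 194 and 1978 ± 474 CPM (SD, n = 5 each) and the log2 fold change was -0.01 (95% interval from -0.39 to 0.37, exact permutation p = 0.881). With 1 sample left out the estimate was between -0.17 (without MET replicate 6) and 0.05 (without CON replicate 2). AHCYL1 (gene ID 505511, chromosome 3, 33513767 to 33556281, minus strand, 17 exon blocks) is related to AHCY in sequence but is known for binding the inositol trisphosphate receptor and not for splitting S-adenosylhomocysteine. It had 93.5 to 115 CPM in CON and 77.3 to 109.9 CPM in MET samples, with a log2 fold change of -0.12 (95% interval from -0.37 to 0.14, exact permutation p = 0.270), and between -0.18 (without MET replicate 4) and -0.06 (without MET replicate 6) with 1 sample left out. In MET replicate 6, where AHCY was highest, AHCYL1 was at its lowest, so that the ratio per kilobase was 66.6 there and 27.5 to 44.0 in the other 9 samples.

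Homocysteine is remethylated with betaine by BHMT (gene ID 497025, chromosome 10, 10127781 to 10151269, plus strand, 8 exon blocks). Its levels were 1721, 1141, 1139, 1229 and 1447 CPM in CON samples and 1166, 1047, 1061, 1255 and 753 CPM in MET samples. 3 of the MET samples (replicates 2, 4 and 6) lay below all CON samples and the other 2 lay within the CON range. The means were 1336 ± 249 CPM in CON and 1056 ± 189.7 CPM in MET calves (SD, n = 5 each), and the log2 fold change was -0.34 with a standard error of 0.18 (95% interval from -0.73 to 0.05). In the edgeR quasi-likelihood fit the unadjusted p was 0.0816 and the adjusted p 0.367 over 10 samples, and over the 12 libraries 0.0297 and 0.194. The exact permutation test over 10 samples gave p = 0.0873.

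BHMT2 (gene ID 616683, chromosome 10, 10066966 to 10083122, plus strand, 10 exon blocks) remethylates homocysteine with S-methylmethionine in place of betaine. It lies 44658 bases before BHMT on the same strand, and only 11 bases part it from DMGDH on the minus strand, which encodes the enzyme that oxidizes the dimethylglycine made by BHMT. Its levels were 35.4, 13.7, 31.4, 36.3 and 24.5 CPM in CON and 18.5, 31.0, 13.5, 14.2 and 11.6 CPM in MET samples. 4 of the MET samples were below 4 of the CON samples, while CON replicate 2 (13.7 CPM) and MET replicate 2 (31.0 CPM) each lay among the values of the other diet. The means were 28.2 ± 9.39 and 17.8 ± 7.82 CPM (SD, n = 5 each), and the log2 fold change of -0.67 (standard error 0.30, 95% interval from -1.32 to -0.02) was the most negative of the members. The unadjusted p was 0.0449 and the adjusted p 0.296 in the same edgeR quasi-likelihood fit (0.0162 and 0.151 over the 12 libraries), and the exact permutation p was 0.103. The unadjusted p of that fit stayed at or below 0.05 in 3 of 10 fits that left out 1 sample each (from 0.00347 to 0.103). BHMT exceeded BHMT2 by 39.2 to 102-fold per kilobase.

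**Figure D3:**
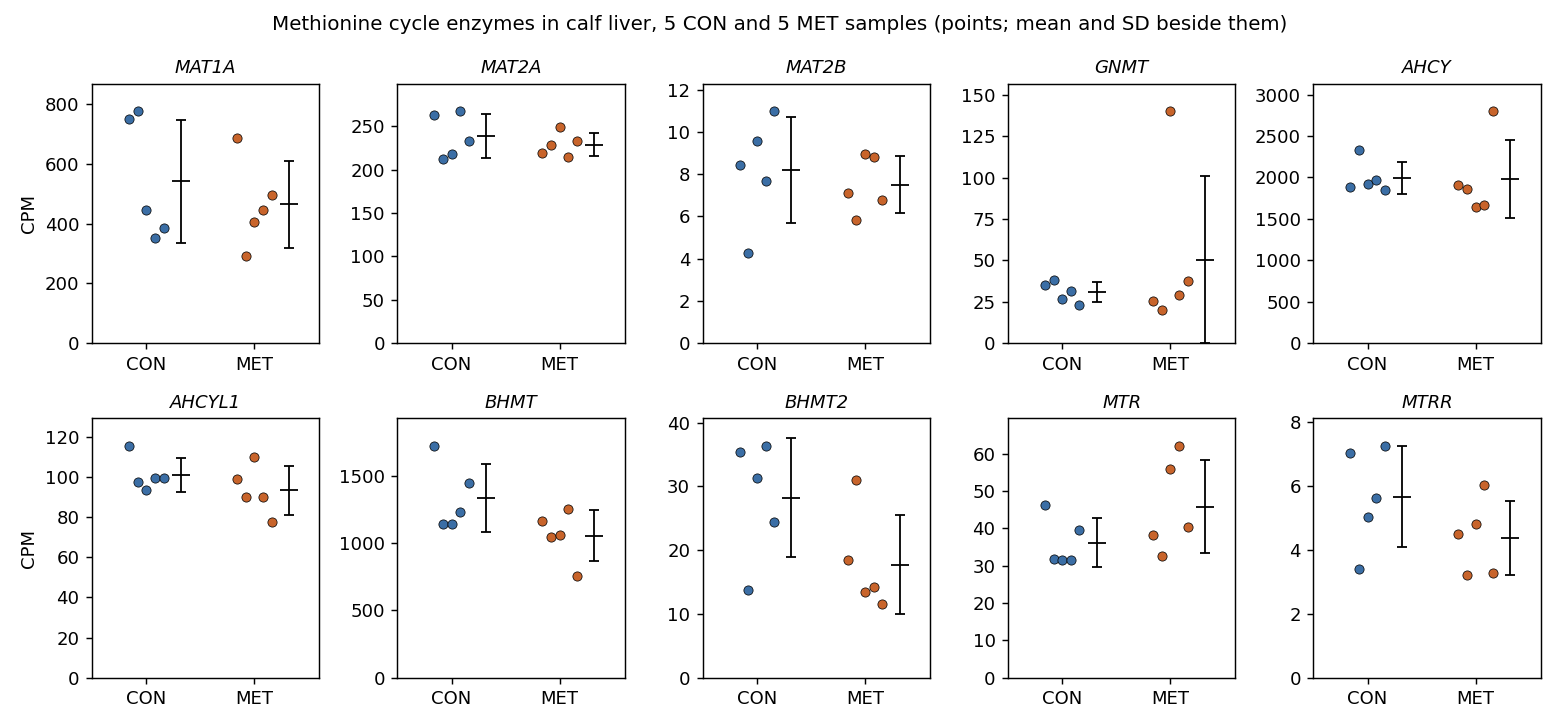
CPM of the 10 enzymes in 5 CON and 5 MET samples, with the mean and SD beside the points of each group and each axis starting at 0. The values of CON and MET overlap in every panel; MET replicate 4 stands apart in GNMT at 140.0 CPM, and 1 sample is high under each diet in AHCY.

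The other route of remethylation runs through MTR, the cobalamin-dependent methionine synthase (gene ID 280869, chromosome 28, 9468106 to 9599283, plus strand, 33 exon blocks). Its levels were 46.3, 31.8, 31.5, 31.6 and 39.7 CPM in CON and 38.1, 32.7, 55.9, 62.0 and 40.3 CPM in MET samples. MET replicates 4 and 5 lay above all CON samples, and 3 CON samples (replicates 2, 3 and 5) lay below all MET samples. The means were 36.2 ± 6.63 and 45.8 ± 12.5 CPM (SD, n = 5 each), and the log2 fold change was 0.34 with a standard error of 0.19 (95% interval from -0.08 to 0.75, edgeR quasi-likelihood adjusted p = 0.400, exact permutation p = 0.175). The estimate was 0.20 without MET replicate 5. The highest levels, in MET replicates 4 and 5, were those of the libraries that stood apart over all genes, and the part of this in the estimate was not tested.

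MTRR (gene ID 507991, chromosome 20, 65427773 to 65459424, minus strand, 15 exon blocks) encodes the reductase that restores the cobalamin of MTR after it is oxidized. Its levels were 7.05, 3.39, 5.03, 5.62 and 7.25 CPM in CON and 4.49, 3.22, 4.83, 6.04 and 3.30 CPM in MET samples. The diets overlapped, only 27 to 80 reads lie behind each library's value, and the log2 fold change was -0.39 (95% interval from -0.92 to 0.14, exact permutation p = 0.198). The estimates of the enzyme and of its reductase thus had opposite signs. Per kilobase, MTR to MTRR was 1.64, 2.35, 1.57, 1.41 and 1.37 in CON and 2.13, 2.54, 2.90, 2.57 and 3.06 in MET samples. The MET samples were above all CON samples in 4 of 5 cases, and CON replicate 2 at 2.35 lay within the MET range.

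Of 9 ratios formed among the members, BHMT to MTR alone, a betaine enzyme against a folate enzyme, was wholly apart between the diets. It compares RNA levels only and does not measure the use of either route. BHMT to MTR per kilobase was 186, 179, 180.4, 194 and 182 in CON samples. In MET samples it was 153, 160.1, 94.7, 101 and 93.3. All 5 MET samples lay below all 5 CON samples, the CON samples spanned only 179 to 194, and the MET samples fell into 2 levels, with replicates 1 and 3 together and replicate 2 above 150 and replicates 4, 5 and 6 near 100. MET replicates 4 and 5 are the libraries that stood apart over all genes, and the part of this in the ratio was not tested. The means were 184 ± 5.92 in CON and 120.3 ± 33.1 in MET calves (SD, n = 5 each), a difference of -0.66 in mean log2 ratio. The ratios were formed after the members' fold changes were known, so this one is given as a description with no test. As a background, the ratio of BHMT to any other tested gene was wholly apart between diets for 5.8% of 13241 genes (768), and the ratio of MTR to any other tested gene for 2.14% (284).

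In shares, BHMT made up 96.9 to 98.4% of the summed BHMT, BHMT2 and MTR level per kilobase in every sample, whatever the diet. The share of MTR was 0.5002 to 0.549% in CON and 0.606 to 1.05% in MET samples. Since BHMT makes up nearly all of the sum, this share restates the BHMT to MTR ratio and is no separate result. The share of BHMT2 was 1.02 to 2.47% in CON and 0.957 to 2.48% in MET samples, with medians of 1.73 and 1.30%. The highest MET share was that of replicate 2 alone: BHMT to BHMT2 was 39.2 there and 73.1 to 102 in the other 4 MET samples, against 39.2 to 96.7 in CON samples.

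**Figure D4:**
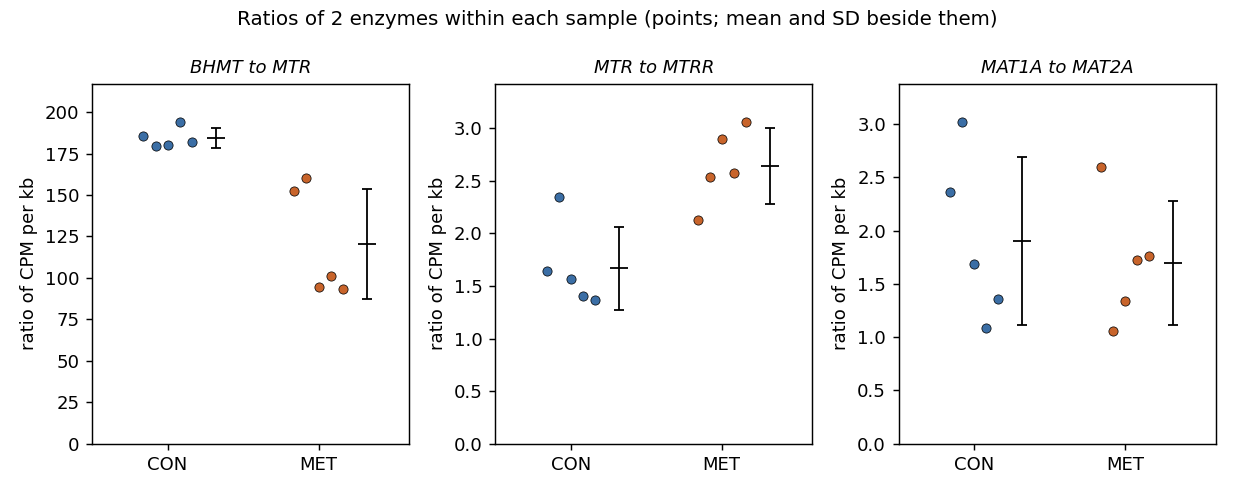
Ratios of length-scaled levels within each sample for BHMT to MTR, MTR to MTRR and MAT1A to MAT2A, with 1 point per sample, the mean and SD beside each group, and axes starting at 0. The BHMT to MTR ratio is 179 to 194 in CON and 93.3 to 160.1 in MET samples; MAT1A to MAT2A overlaps between diets.

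Pairs of members were also compared across samples. Of 45 pairs of members, 0 had a Pearson correlation of log2 CPM over the 10 samples with an adjusted permutation p of at most 0.05. The highest r was that of BHMT with MTRR, at r = 0.81 (permutation p = 0.0013, adjusted 0.0585 over the 45 pairs) and rho = 0.88 (permutation p = 0.00157, adjusted 0.0706). It stayed at r = 0.81 without the 2 samples farthest from the median of BHMT, and was 0.76 for deviations from the diet means. MAT2B with MTRR gave r = 0.80 (adjusted permutation p = 0.0911) and rho = 0.77 (adjusted permutation p = 0.280), with r = 0.71 without the 2 farthest samples and 0.84 for deviations from the diet means. AHCYL1 with BHMT had r = 0.76 and rho = 0.53, with adjusted permutation p-values of 0.251 and 0.700, and rested on CON replicates 1 and 4 together and MET replicate 6, since r was -0.05 without them. For deviations from the diet means, MTR with MTRR had r = 0.78 and AHCY with BHMT r = -0.76 (adjusted permutation p = 0.172 for each), against r = 0.41 and r = -0.58 over the samples as measured (rho = 0.26 and -0.28). The r of AHCY with BHMT was 0.22 without MET replicate 6 and CON replicate 2. With 5 samples per diet, no separate r was computed within a diet.

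Among all tested genes, those most like a member across the 10 samples were found by the highest Pearson r of log2 CPM, as a description only. Picked as the highest of 13242 genes over 10 samples, such r are high by selection, and they were not tested. For MAT1A these were EFNA5 (r = 0.91), C23H6orf132 (0.91) and FOXO3 (0.91), and for MAT2A they were DTWD1 (0.87) and ZBTB2 (0.86). For AHCY they were IQANK1 (0.98), LGALS1 (0.95) and STX18 (0.94), and without MET replicate 6 these r were 0.96, 0.88 and 0.87. For BHMT they were CNOT7 (0.94), TNRC6A (0.93) and USP25 (0.93), and for MTR they were MOCOS (0.96) and RANBP3 (0.92). For GNMT they were C16H1orf174 (0.96), VEPH1 (0.93) and MGST2 (0.91), and the r fell to 0.89, 0.50 and 0.76 without MET replicate 4. No other member was among the 3 genes most like any of these 6.

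Around the cycle, 25 further genes were examined, which supply its methyl groups, use its products or carry cobalamin. None passed an FDR of 0.10 over the 10 samples or over the 12 libraries, 10 had higher and 15 lower estimates in MET calves (median log2 fold change -0.09), and 4 of 25 had an unadjusted p of at most 0.05, near the 16.3% of all genes. Both genes that remove adenosine, the other product of AHCY, were among these 4, with estimates of opposite sign. ADK, which phosphorylates adenosine, was at 196.8 ± 19.3 CPM in CON and 161.8 ± 14.2 CPM in MET calves (log2 fold change -0.28, 95% interval from -0.54 to -0.03). All MET samples of ADK were below all CON samples, though only just, since the highest MET value was 173.3 and the lowest CON value 173.4 CPM. ADA, which deaminates adenosine, was at 48.8 ± 10.2 CPM in CON and 70.3 ± 22.4 CPM in MET calves (log2 fold change 0.53, 95% interval from 0.06 to 0.99), with 3 of 5 MET samples above all CON samples. The edgeR quasi-likelihood adjusted p (Benjamini-Hochberg) was 0.268 for ADK and 0.266 for ADA.

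The other members of the 4 were MTHFD1 and AHCYL2. MTHFD1, a folate enzyme upstream of the methyl group used by MTR, was at 269 ± 41.4 CPM in CON and 216 ± 17.6 CPM in MET calves, with a log2 fold change of -0.32 (95% interval from -0.61 to -0.02). AHCYL2, a relative of AHCYL1, was at 7.41 ± 1.31 and 5.43 ± 0.607 CPM, with a log2 fold change of -0.45 (95% interval from -0.80 to -0.09) and 4 of 5 MET samples below all CON samples. Both missed the FDR of 0.10, with edgeR quasi-likelihood adjusted p-values (Benjamini-Hochberg) of 0.281 and 0.225.

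The transsulfuration genes CBS and CTH gave intervals that spanned 0. CBS, which draws homocysteine toward cysteine, was at 94.4 ± 14.8 CPM in CON and 86.6 ± 20.4 CPM in MET calves (log2 fold change -0.12, 95% interval from -0.49 to 0.24). CTH, the next enzyme on that route, was at 17.1 ± 1.66 and 20.5 ± 6.995 CPM (0.26, from -0.21 to 0.73). All 4 genes of betaine synthesis and use (CHDH, ALDH7A1, DMGDH and SARDH) had lower estimates in MET calves (median log2 fold change -0.15). Of 6 cobalamin genes, 5 had higher estimates (median 0.07). None of either list had an unadjusted p of at most 0.05 in the edgeR quasi-likelihood fit. Over all genes tested 6558 estimates were higher and 6684 lower, so the signs of lists this short are a description only. NNMT, which methylates nicotinamide and was singled out after its values were seen, had the widest interval of the 25 (log2 fold change 1.23, from -0.44 to 2.89), with levels of 10.6 to 187 CPM in CON and 12.2 to 336 CPM in MET samples.

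**Figure D5:**
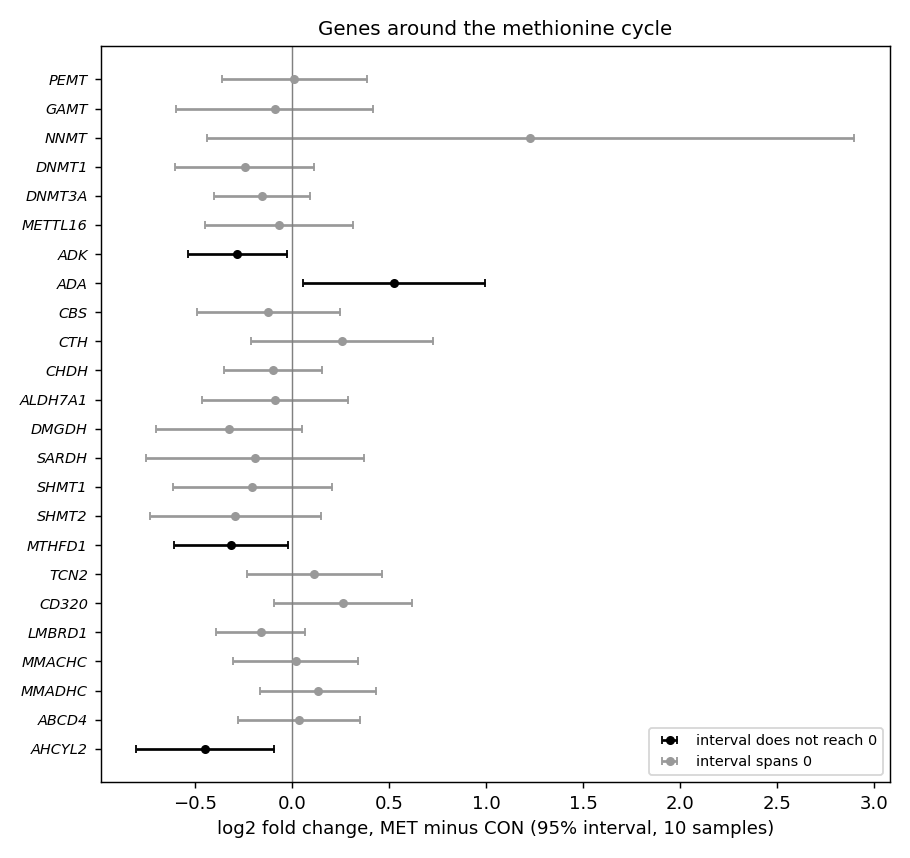
Log2 fold change of MET minus CON with its 95% interval over 10 samples for genes around the methionine cycle, with black for intervals that do not reach 0 and grey for those that span it. The 4 black bars are ADK, ADA, MTHFD1 and AHCYL2, and NNMT has the widest bar.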

How the data were processed

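Single-end reads of stranded mRNA libraries were checked by the authors with FastQC 0.11.15 and mapped with STAR 2.5.3a, on the bovine build UMD 3.1.1. They were assigned to genes with featureCounts (Subread 1.5.2). The deposited values are raw counts per gene and library, and the strand setting of the counting is not given in the sources used here. Replicates were not pooled by the authors.

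From these counts, gene IDs were matched to symbols with a RefSeq table of assembly ARS-UCD2.0 (25105 of 30336 IDs), and positions were taken from the count tables. Chromosome numbers are those of most genes on the same sequence. No member shares exonic bases with another annotated gene on either strand. Reads of CON replicates 1 and 4, and of MET replicates 1 and 3, were summed, because these libraries differed by little more than counting noise. Whether the close libraries came from separate calves cannot be told from the counts, and every p-value measures the spread between samples only. Genes were kept by filterByExpr (minimum count 10, minimum total 15), scaled by TMM and tested with edgeR 4.0.16 (quasi-likelihood test, diet as the only term, R 4.3.3), with Benjamini-Hochberg adjustment over all 13242 genes. The standard error is the log2 fold change divided by the square root of its F statistic. CPM used TMM library sizes, and log2 CPM a prior count of 2. Single members were also tested by an exact permutation test over all arrangements of the samples, and correlations by 100000 permutations. The fitting steps were tested on simulated data. Counting floors (3 reads) cover counting error only.

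Named were all 10 members, CBS and CTH, every gene of a list of 25 around the cycle with an unadjusted p of at most 0.05, and for MAT1A, MAT2A, GNMT, AHCY, BHMT and MTR the 3 genes with the highest r, but for a few items that are not reported here. NNMT and the 4 betaine genes were named after their values were seen. The members, lists and markers were chosen with earlier results of these data known. Alternatives covered the library set, scaling, filters, gene length, DESeq2 1.42.0, limma voom (limma 3.58.1) and leaving out each sample. Columns of positions and lengths were used as annotation only.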

Additional observations from a re-analysis of the deposited data

Results flagged for a closer look

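In 4 of 20 groups of 5 samples, 1 sample stood so far from the others that its gap exceeded 0.71 of the whole range (Dixon's test at 95%, on CPM). Chance flags about 1 in 20 groups. GNMT was at 140.0 CPM in MET replicate 4, where the other MET samples had at most 37.5 CPM. AHCY was at 2332 CPM in CON replicate 2, where the other CON samples had at most 1968 CPM, and at 2799 CPM in MET replicate 6, where the other MET samples had at most 1911 CPM. AHCYL1 was at 115 CPM in CON replicates 1 and 4 together, where the other CON samples had at most 99.4 CPM. The cause of these values was not tested.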

How the results depend on the processing

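No alternative brought a member to an FDR of 0.10. The count of all genes at that FDR was 0 over 10 samples in the edgeR quasi-likelihood fit (2165 at an unadjusted p of at most 0.05), against 583 over the 12 libraries and 639 with DESeq2, and 0 to 39 when each sample was left out in turn (39 without MET replicates 1 and 3). Members at an unadjusted p of at most 0.05 numbered 1 (BHMT2), and 2 over the 12 libraries (BHMT and BHMT2) or with a correction for gene length (BHMT2 and MTR). They numbered 0 with CON replicate 4 and MET replicate 3 as the only library of their pair, with library size alone, with library size without the 10 most counted genes, and with robust dispersions, and 0 to 2 with a sample left out. With the length correction MTR had a log2 fold change of 0.47 (edgeR quasi-likelihood fit, unadjusted p = 0.0251, adjusted p = 0.297). Leaving out each of CON replicates 3 and 5, MET replicates 1 and 3, and MET replicates 4, 5 and 6 gave 0 such members, and leaving out CON replicate 2 or MET replicate 2 gave 2. Of the 25 genes around the cycle, 4 were at that threshold, against 2 with library size alone, 2 without a count filter, and 2 to 5 with a sample left out (2 without CON replicate 3 or 5, or MET replicate 5 or 6). GNMT changed sign without MET replicate 4 (-0.14; range with a sample left out -0.14 to 0.91). AHCY was 0.013 with library size alone. With a sample left out it was between -0.17 (without MET replicate 6) and 0.0502 (without CON replicate 2). MAT1A ranged from -0.40 to -0.06 and MTR from 0.20 to 0.44 with a sample left out. All members but GNMT and AHCY kept their sign in all 14 alternatives and with each sample left out. GNMT was 0.33 with limma voom and 0.18 over the 12 libraries with a replicate block, where MTR was 0.22. The causes were not tested. The BHMT to MTR ratio, examined in other forms after seeing the data, was below all CON values in all 6 MET libraries and, with the length correction, in all 5 MET samples. The form over 12 libraries only splits the close pairs (154 in MET replicate 1 and 151 in MET replicate 3), so it is no separate check.

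Replicate numbers did not pair the libraries: deviations of same-numbered CON and MET libraries correlated at -0.19 to 0.15, and no library correlated best with its own number. With the replicate number as a block, the 12 libraries gave 6 genes at an FDR of 0.10. Scaling by upper quartile took the share of higher estimates among genes at an unadjusted p of at most 0.05 from 47.9 to 41.2%, and library size alone took it to 54.2%.

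Precision did not follow depth alone: the standard error was 0.28 for MAT1A (2988 to 7615 reads per library), 0.23 for MAT2B (34 to 106 reads) and 0.24 for MTRR (27 to 80 reads).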
